A study of Mus musculus with 28 samples.

Results

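The genes described here are the nuclear genes for subunits of mitochondrial respiratory complexes I, II and III in a pair of mouse mammary cell lines. They were chosen by symbol alone: protein-coding genes of the Ndufa, Ndufb, Ndufc, Ndufs and Ndufv series, the Sdh genes Sdha to Sdhd, and the Uqcr genes Uqcrc1, Uqcrc2, Uqcrfs1, Uqcrb, Uqcrh, Uqcrq, Uqcr10 and Uqcr11. This rule gave 48 genes among the 56748 gene identifiers counted, of which 36 were counted by symbol with complex I, 4 with complex II and 8 with complex III. Ndufa4 is kept with the complex I accessory genes throughout, although it is now assigned to complex IV. All 48 were listed in the counts and all 48 passed the filter on low counts in both comparisons. The Ndufa series held 13 genes, Ndufb 10, Ndufc 2, Ndufs 8 and Ndufv 3. The rule left out 3 relatives, Ndufab1, Ndufa4l2 and Ndufb1-ps, which are given with the other pathway genes.

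Counts came from total RNA sequenced after removal of ribosomal RNA, in 28 libraries. HC11 is a mouse mammary epithelial line that is labelled as untransformed, and 4T1 is a mouse mammary cancer line. There were 10 HC11 DOX libraries, 10 HC11 DOX + DIP libraries and 8 4T1 DOX libraries, so that the DOX treatment was common to every library. The labels spell out neither DOX nor DIP and give no dose or time. In HC11 work, DIP is the usual short form for dexamethasone, insulin and prolactin, the hormones that induce milk protein genes. No label says whether libraries of a group came from separate cultures, so p-values measure the spread between these libraries, which may be technical. Each cell line is a single line, and a difference between 4T1 and HC11 is a difference between those lines.

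Complex I passes electrons from NADH, and complex II from succinate, to ubiquinone in the inner mitochondrial membrane. Complex III passes them on to cytochrome c, and complexes I and III pump protons as they do so. Complex I is built from core subunits, which carry the flavin, the iron-sulfur clusters and the quinone site or lie in the membrane arm, and from many accessory subunits around them. The core subunits of the membrane arm, and cytochrome b of complex III, are encoded by mitochondrial DNA, whereas every gene described here is nuclear. Nuclear respiratory genes are known as targets of the factors NRF1, GABPA (of the ETS family), ERR and YY1, with the coactivators of the PGC-1 family.

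The promoter windows of the genes were searched for short motifs of those factors. RefSeq windows on the build GRCm38.p6, which ran from 250 bases before the start of the gene to 50 after it, were listed for 40 of the 48 genes. The genes without a window included Uqcrc2, Uqcrq, Sdhc, Ndufs1, Uqcrb, Ndufb9 and Ndufa2. The motifs were GCGCATGCG for NRF1, CCGGAAG for ETS factors, AAGGTCA for ERR and AAGATGGCG for YY1, each read on both strands. The NRF1 motif was found for 4 of the 40 genes (10%, against 2.61% of 17492 protein-coding genes with a window). The ETS motif was found for 8 (20% against 12.9%) and the ERR motif for 4 (10% against 4.73%). The YY1 motif was found for 5 (12.5% against 2.14%). At least 1 of them was found for 19 genes (47.5%, against 20.7% of protein-coding genes). A gene with more than 1 window was counted once. A match describes these letters only and is not a site shown to be bound.

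The 4 NRF1 matches are shown because they include Uqcrc1, the complex III gene that fell most with DIP and was higher by most in 4T1, and Ndufa11, a gene that fell in both. Capitals mark the motif on either strand, and each run is 30 bases, read 5′ to 3′ on the strand of the gene. The windows lie at chr9:108936668-108936697 on the plus strand, chr2:36049328-36049357 on the minus strand, chr10:80406807-80406836 on the minus strand and chr17:56717692-56717721 on the plus strand. In Uqcrc1 and Ndufa11 the match is a palindrome, so that both strands hold the motif, shifted by 1 base.
Uqcrc1: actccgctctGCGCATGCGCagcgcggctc
Ndufa8: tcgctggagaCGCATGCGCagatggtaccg
Uqcr11: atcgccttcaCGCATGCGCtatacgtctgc
Ndufa11: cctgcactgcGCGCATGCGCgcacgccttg

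All 5 YY1 matches began between 23 and 36 bases after the start of the gene, counted from 1, in the same orientation, and are shown for that shared place. They lie at chr10:80249463-80249492 (plus strand), chr3:51408914-51408943 (minus), chr13:73328433-73328462 (minus), chr13:114388045-114388074 (minus) and chr6:126849096-126849125 (minus). Capitals mark the motif, in which the letters ATG stand in the fourth to sixth place.
Ndufs7: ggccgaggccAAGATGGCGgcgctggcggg
Ndufc1: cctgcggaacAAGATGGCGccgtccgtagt
Ndufs6: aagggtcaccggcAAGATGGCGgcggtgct
Ndufs4: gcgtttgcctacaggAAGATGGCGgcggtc
Ndufa9: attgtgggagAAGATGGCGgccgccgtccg

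The ETS match of Sdhb, the complex II gene with the largest rise in 4T1, lies at chr4:140961267-140961296 on the plus strand. Of the genes with a window, Ndufb2 had the largest rise in 4T1, and the 250 bases before its start, at chr6:39592315-39592564 on the plus strand, hold 1 ERR motif in capitals, which begins 181 bases before the start.
Sdhb: ctcggagaaaCCGGAAGcggccttccactc
Ndufb2: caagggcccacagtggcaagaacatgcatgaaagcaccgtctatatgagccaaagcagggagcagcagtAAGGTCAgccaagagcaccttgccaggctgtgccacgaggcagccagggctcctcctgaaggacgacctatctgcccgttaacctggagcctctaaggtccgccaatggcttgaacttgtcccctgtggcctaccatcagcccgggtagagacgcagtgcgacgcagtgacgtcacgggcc

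Libraries held between 134117581 and 222065843 counts. Within the HC11 DOX + DIP group, libraries 8 and 10 stood apart: they were the highest or the lowest of the group for 37.0% and 38.5% of the 23829 genes tested, against 8.13% to 31.1% for the other 8. Krt5, a basal keratin, chosen like Myc after its values were seen, had 56.7 and 88.5 CPM in them, against 322 to 810.2 in the other 8. Myc had 887 and 1000.3 CPM, against 63.2 to 179. HC11 DOX library 5 (40.8%) and 4T1 DOX libraries 2 and 4 (40.4% and 34.8%) were also often extreme. All 8 epithelial markers had counts in every group, with a summed level of 3443 to 8055 CPM in HC11 DOX, 506 to 2255 in HC11 DOX + DIP and 2275 to 3265 in 4T1 DOX. Cldn7 was near the limit of detection in HC11 DOX, at 0.0356 to 0.407 CPM, and reached 63.5 to 93.9 in 4T1 DOX. Summed leukocyte markers reached at most 12.4 CPM in any library, endothelial markers 5.21 and skeletal muscle markers 1.55. Adipocyte markers reached 125 CPM and fibroblast markers 167 CPM in HC11 DOX + DIP, the first from Fabp4 alone. What part these differences have in the results was not tested. Mki67, a marker of dividing cells, had 87.9 to 398 CPM in HC11 DOX, 3.25 to 27.6 in HC11 DOX + DIP and 333 to 515 in 4T1 DOX.

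The level of a complex was taken as the mean log2 CPM (log2 of counts scaled to library size, CPM, prior count 2) of its genes in a library. For complex I this was 5.83 ± 0.14 (SD, n = 10) in HC11 DOX, 5.80 ± 0.25 (n = 10) in HC11 DOX + DIP and 6.11 ± 0.20 (n = 8) in 4T1 DOX. For complex II it was 6.86 ± 0.14, 6.95 ± 0.29 and 7.20 ± 0.13. For complex III it was 6.61 ± 0.17, 6.53 ± 0.29 and 6.91 ± 0.15. In complex II, every 4T1 library (7.04 to 7.40) lay just above every HC11 DOX library (6.70 to 7.03), whereas the groups overlapped in complexes I and III. Among the core genes of complex I, every 4T1 library (6.62 to 7.12) lay above every HC11 DOX library (6.09 to 6.49). The DIP libraries overlapped with HC11 DOX in each complex. In bulk RNA, fewer cells of a type and less RNA per cell cannot be told apart. As a sum, the 48 genes took between 0.353% and 0.426% of all counts in HC11 DOX, 0.299% to 0.594% in HC11 DOX + DIP and 0.375% to 0.484% in 4T1 DOX.

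**Figure D1:**
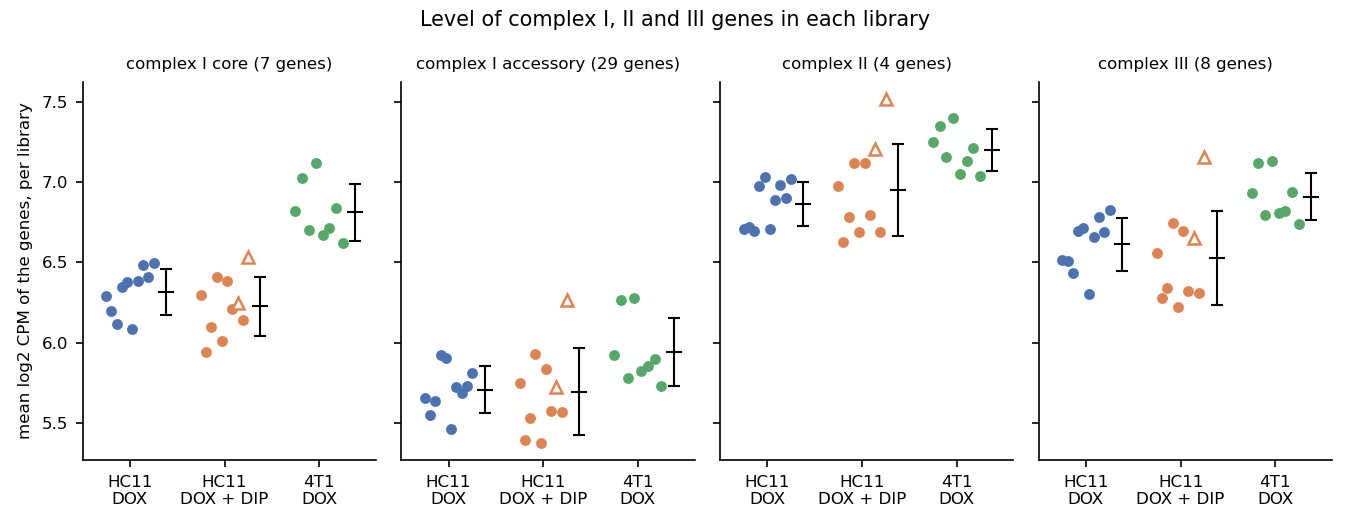
Mean log2 CPM of the genes of each group (vertical axis) in each library, for the 7 core and 29 accessory genes of complex I and for complexes II and III; every point is a library, open triangles are HC11 DOX + DIP libraries 8 and 10, and the bars beside the points are the mean ± SD. The core genes of complex I lie higher in all 8 4T1 libraries than in all 10 HC11 DOX libraries, as do the genes of complex II, and library 10 is the highest HC11 DOX + DIP library in all 4 panels.

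The genes varied more among the HC11 DOX + DIP libraries than within the other groups. The median SD of log2 CPM over the 48 genes was 0.19 in HC11 DOX, 0.21 in 4T1 DOX and 0.31 in HC11 DOX + DIP, where 10 genes had an SD above 0.5, against 0 in the other groups. Without libraries 8 and 10 the median SD in HC11 DOX + DIP was 0.23. Library 10 held the highest value of its group for 33 of the 48 genes, and for 20.5% of all genes tested. Both libraries lay above the other 8 for 15 genes, among them Uqcrq, Sdhd, Uqcrfs1, Ndufa7 and Ndufs7, and below the other 8 for Ndufa3 and Ndufv2. The matching share over all genes tested is not given here. Libraries 2 and 4 of 4T1 were the highest of their group for 20 and 26 genes, and for 18.8% and 23.2% of all genes tested. Library 6 of HC11 DOX had the lowest value for 28, and for 16.4% of all genes tested.

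Per kb of the longest annotated transcript, Uqcr10, a small subunit of complex III, had the highest level in HC11 DOX (180 ± 24.1 CPM per kb, SD) and in HC11 DOX + DIP (216 ± 61.0), each n = 10. Ndufb9, an accessory subunit of complex I, had the highest in 4T1 DOX (491 ± 77.3 CPM per kb, n = 8), and ranked 3 of the 48 in HC11 DOX at 142 ± 26.8. Ndufb2 was the lowest in each of the 3 groups, at 2.26 ± 0.32, 2.49 ± 0.83 and 5.43 ± 0.93 CPM per kb. In complex II, Sdhc was the lowest in each group, at 38.5 ± 4.18, 41.7 ± 7.12 and 37.9 ± 6.91 CPM per kb. In complex III, Uqcrc2 was the lowest, at 68.2 ± 5.81, 57.4 ± 6.57 and 79.3 ± 4.66 CPM per kb. The order depends on the transcript chosen, since short and long transcripts are annotated for many of these genes. With the median length of the coding transcripts, Ndufb2 was again the lowest in each group, whereas Uqcrc1 was the highest in HC11 DOX and in 4T1 DOX, and Ndufb9 ranked 2 in 4T1 DOX. In HC11 DOX + DIP the highest was then Uqcrq, at 396 ± 255 CPM per kb. On that scale Sdhc was the highest gene of complex II in each group, at 149.8 ± 16.3, 162 ± 27.7 and 147 ± 26.9 CPM per kb, where it had been the lowest. In complex III the lowest was then Uqcrfs1 in each group, at 69.3 ± 11.7, 80.3 ± 49.0 and 92.3 ± 9.48 CPM per kb. The order of the genes within complexes II and III thus rests on the transcript length used.

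HC11 DOX + DIP was compared with HC11 DOX to ask how these genes differ between HC11 cells with and without DIP. DIP changed few of them and did so in both directions: 7 rose and 8 fell, and 33 did not pass the test (edgeR quasi-likelihood test, adjusted p under 0.05, here "called"). These are 14.6% and 16.7% of the 48, against 24.5% called higher and 21.0% called lower among all 23829 genes tested. The risers were Uqcrq, Ndufa7, Ndufa1, Ndufv3, Ndufb9, Ndufa6 and Sdha, and the genes that fell were Uqcrc1, Ndufa4, Ndufa11, Uqcrb, Ndufa8, Uqcr11, Uqcrc2 and Ndufa10. No member reached a 2-fold change, and the median log2 fold change was 0.01, against 0.06 for all genes tested. With upper-quartile scaling 8 rose and 4 fell, and with the trend on transcript length taken out 10 rose and 4 fell, so the balance between the directions depends on the scaling. Without libraries 8 and 10 of the DIP group, 6 members rose and 13 fell, against 27.0% and 25.4% of all genes, and the median was -0.08.

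**Figure D2:**
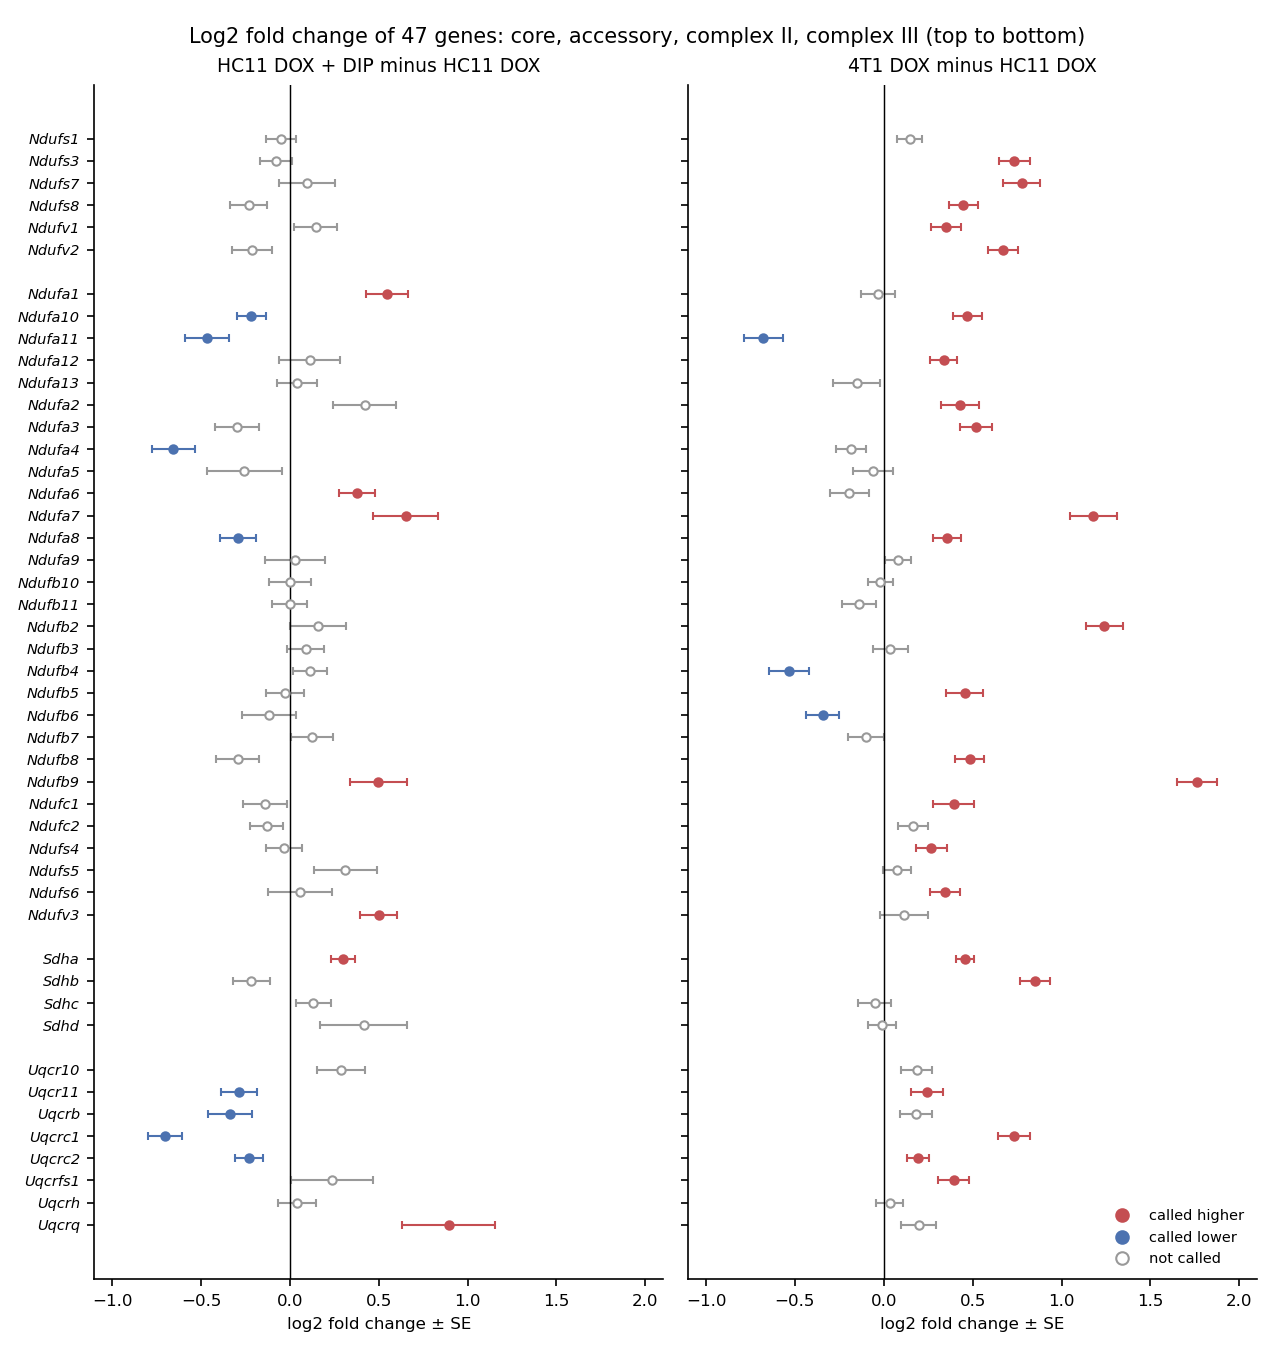
Log2 fold change ± SE (horizontal axis, edgeR) of 47 of the 48 genes for HC11 DOX + DIP minus HC11 DOX on the left and 4T1 DOX minus HC11 DOX on the right, with complex I core, complex I accessory, complex II and complex III genes from top to bottom. Filled points are called, higher in red and lower in blue, and open points are not. Points with DIP fall on both sides of 0, whereas most filled points in 4T1 lie to the right, with Ndufb9 farthest at 1.76.

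Complex III held the gene with the clearest fall. Uqcrc1 encodes core protein 1, which faces the matrix, and ranged over 202 to 307 CPM (median 237) in HC11 DOX and 122 to 179 CPM (median 144) in HC11 DOX + DIP. Every DIP library lay below every HC11 DOX library, libraries 8 and 10 included. The log2 fold change was -0.70 ± 0.10 (SE), with an edgeR adjusted p of 4.08e-06. It was the only member whose groups did not overlap with DIP, lower in 1 of 48 (2.08%) and higher in 0, where 6.66% of all genes tested were lower and 4.76% higher without overlap. Its partner Uqcrc2, core protein 2, ranged over 108 to 147 CPM (median 131) and 91.7 to 134 CPM (median 109), which overlap, and fell by 0.23 ± 0.08 on the log2 scale (edgeR adjusted p = 0.0193; 0.0688 with upper-quartile factors). The annotated exons of Uqcrc2 share 19.8% of their bases with Pdzd9 on the opposite strand, so that, without a known strand setting, its counts are uncertain.

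The small subunits of complex III did not move together. Uqcrb, which binds near the quinone pocket, fell by 0.34 ± 0.13 (edgeR adjusted p = 0.0331), and Uqcr11 fell by 0.29 ± 0.10 (adjusted p = 0.0278), both on the log2 scale. Neither call held throughout: with upper-quartile factors the edgeR adjusted p was 0.0658 for Uqcrb and 0.05005 for Uqcr11, and with the length trend taken out 0.0614 and 0.0752. The call of Uqcrb was also lost in 10 of the 20 fits that each left out 1 library, and that of Uqcr11 in 1, without library 3 of HC11 DOX + DIP. Uqcrq rose by 0.89 ± 0.26 (edgeR adjusted p = 0.00792). Its HC11 DOX libraries held 76.6 to 137 CPM (median 113) and its DIP libraries 88.0 to 501 CPM (median 168), with library 8 at 325 and library 10 at 501 CPM. The other 8 DIP libraries held 88.0 to 212 CPM and overlapped with HC11 DOX. Without libraries 8 and 10, the change of Uqcrq was 0.43 (edgeR adjusted p = 0.0384). Uqcrh and Uqcr10 were not called, at 0.04 ± 0.11 and 0.29 ± 0.13. Counts of Uqcrb are uncertain, since the processed pseudogenes Gm16089 and Gm2962 match its transcript at 95% or more and held counts of 12.4% and 13.7% of its own (medians over libraries).

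Uqcrfs1, the Rieske iron-sulfur protein that passes electrons to cytochrome c1, depended on libraries 8 and 10. HC11 DOX libraries ranged over 74.1 to 120.1 CPM (median 92.9) and DIP libraries over 73.3 to 262 CPM (median 76.6). Libraries 8 and 10 held 203 and 262 CPM, and each of the other 8 held between 73.3 and 91.0. Over all libraries the log2 change was 0.24 ± 0.23 and was not called (edgeR adjusted p = 0.432). Without the 2 libraries it was -0.26, a fall (edgeR adjusted p = 0.0297). In complex III as a whole, 1 gene rose (12.5%) and 4 fell (50%) of 8, against 24.5% and 21.0% of all genes tested. The median was -0.09. Without those libraries 1 rose and 5 fell, with a median of -0.27. Of the 4 falls, that of Uqcrc1 alone was kept under every alternative run and with each library left out.

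In complex II, Sdha rose and the other genes did not pass the test. Sdha, the flavoprotein that oxidises succinate, ranged over 132 to 158 CPM (median 145) in HC11 DOX and 148 to 203 CPM (median 178) in HC11 DOX + DIP, with overlap at the edges. It rose by 0.30 ± 0.07 on the log2 scale (edgeR adjusted p = 9.75e-04), and by 0.28 without libraries 8 and 10. Sdhb, its iron-sulfur partner, had a value of -0.22 ± 0.11 (adjusted p = 0.098, edgeR). The membrane anchors Sdhc and Sdhd had values of 0.13 ± 0.10 and 0.41 ± 0.24. Sdhd ranged over 104 to 159.8 CPM (median 134) in HC11 DOX and over 89.8 to 411 CPM (median 128) with DIP, where libraries 8 and 10 stood at 316 and 411 CPM and the other 8 reached at most 159.5. Without those libraries its value was -0.08.

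**Figure D3:**
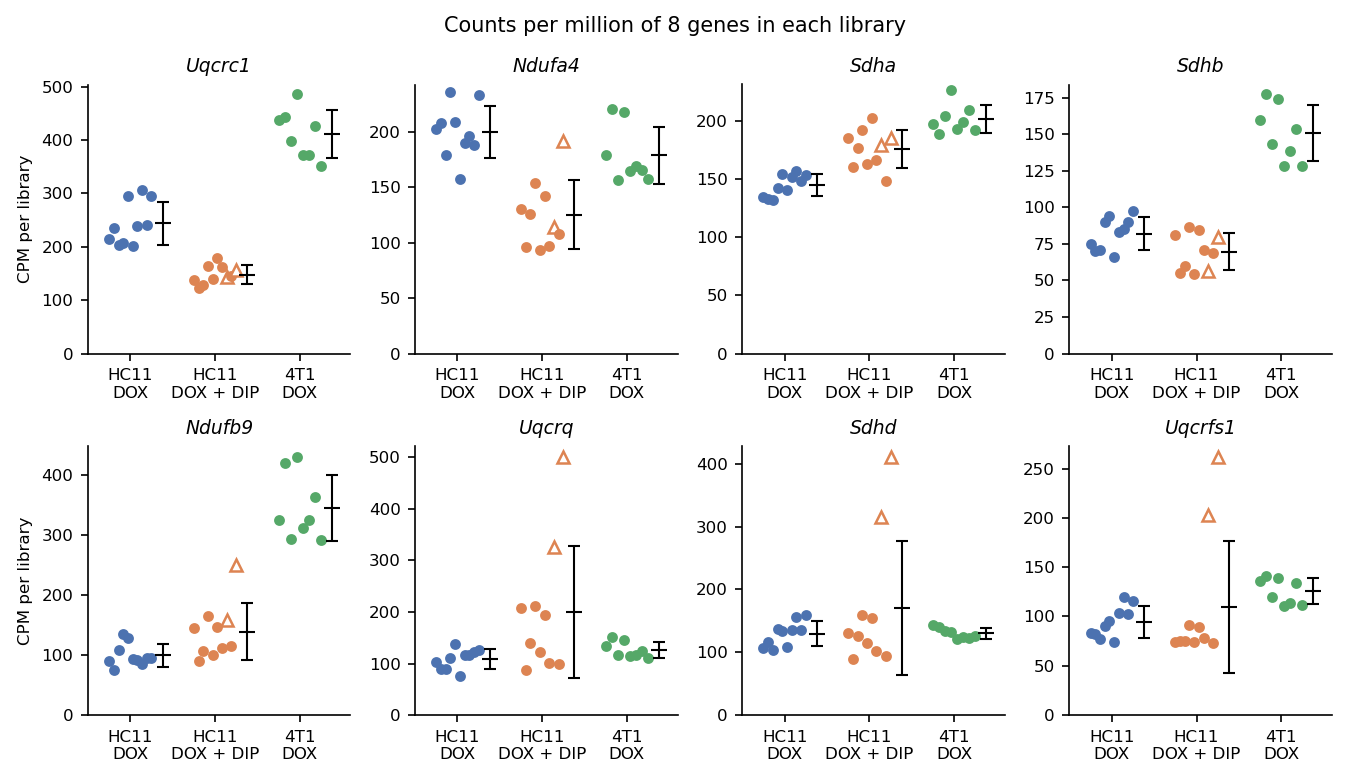
CPM (vertical axes, from 0) of 8 genes in each library of the 3 groups; points are libraries, open triangles are HC11 DOX + DIP libraries 8 and 10, and the bars are the mean ± SD. Uqcrc1 is lower in all 10 DIP libraries and higher in all 8 4T1 libraries than in HC11 DOX, whereas libraries 8 and 10 set the high DIP values of Uqcrq, Sdhd and Uqcrfs1.

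None of the 7 core genes of complex I was called with DIP, and their values lay between -0.23 (Ndufs8) and 0.14 (Ndufv1), with a median of -0.07. Ndufv1, which binds NADH and the flavin, ranged over 89.4 to 124 CPM (median 111) in HC11 DOX and 79.8 to 167 CPM (median 109) with DIP. Ndufv2, an iron-sulfur subunit beside it, had a value of -0.21 ± 0.11, with library 8 at 47.8 and library 10 at 66.1 CPM below the other 8. The iron-sulfur subunit Ndufs1 had -0.05 ± 0.08, and Ndufs7, which lies near the quinone site, had 0.10 ± 0.16. Ndufs3 had -0.08 ± 0.09. Ndufs8, which carries iron-sulfur clusters, had -0.23 ± 0.10 over all libraries (edgeR adjusted p = 0.0694) and -0.31 without libraries 8 and 10 (adjusted p = 0.00973), a call.

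Of the 29 accessory genes of complex I, 5 rose (17.2%) and 4 fell (13.8%) with DIP, against 24.5% and 21.0% of all genes tested. Ndufa4 fell most: it had been counted with complex I and is now assigned to complex IV, cytochrome c oxidase. Its libraries ranged over 157 to 236 CPM (median 199) in HC11 DOX and 93.6 to 192 CPM (median 120.1) with DIP, and library 10, at 192, was the highest DIP library. The change was -0.66 ± 0.12 (edgeR adjusted p = 1.35e-04). Ndufa11, an accessory subunit of the membrane arm, ranged over 66.4 to 119 CPM (median 83.1) and 38.6 to 74.5 CPM (median 60.2) and fell by 0.47 ± 0.12 (edgeR adjusted p = 0.00404). Ndufa8 and Ndufa10 fell by less, 0.29 ± 0.10 and 0.22 ± 0.08 on the log2 scale. The call of Ndufa8 was lost with the length trend taken out (edgeR adjusted p = 0.141), and that of Ndufa10 under 4 alternatives (up to 0.0886, upper-quartile factors) and in 10 of the 20 fits that each left out 1 library.

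The accessory genes that rose with DIP changed by 0.38 to 0.65 on the log2 scale. Ndufa7 ranged over 29.9 to 51.6 CPM (median 34.8) in HC11 DOX and 38.5 to 120.0 CPM (median 53.2) with DIP, with library 10 highest, and rose by 0.65 ± 0.18 (edgeR adjusted p = 0.00581). Without libraries 8 and 10 its rise was 0.38 (edgeR adjusted p = 0.0149). Ndufa1, a small membrane subunit, ranged over 24.4 to 36.7 CPM (median 30.0) and 30.6 to 69.3 CPM (median 41.0) and rose by 0.55 ± 0.12 (edgeR adjusted p = 7.98e-04). The groups of both genes overlapped. Ndufv3, a subunit of the NADH-binding module, held 28.5 to 46.1 CPM (median 33.8) in HC11 DOX and 40.3 to 56.2 CPM (median 53.3) with DIP. It rose by 0.50 ± 0.10 (edgeR adjusted p = 4.90e-04), and by 0.50 without libraries 8 and 10, which were not high for this gene. Ndufa6, which binds the acyl carrier protein of complex I, rose by 0.38 ± 0.10. Ndufb9, which binds that protein too, rose by 0.50 ± 0.16 (edgeR adjusted p = 0.0151), and was not called without libraries 8 and 10 (0.30, adjusted p = 0.0513).

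Further accessory genes passed the test without libraries 8 and 10. Ndufb8 fell (-0.43, against -0.29 ± 0.12 over all libraries), as did Ndufa5 (-0.59, against -0.26 ± 0.21) and Ndufb6 (-0.33, against -0.12 ± 0.15). Ndufb6 shares 39.0% of its exonic bases with Smim27 on the opposite strand, so its counts are uncertain. The values of the accessory genes not called over all libraries lay between -0.30 (Ndufa3) and 0.42 (Ndufa2).

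4T1 DOX was compared with HC11 DOX to ask how the cancer line differs from the untransformed line under the same label. Most of the genes that passed the test were higher in 4T1: 25 were called higher (52.1%) and 3 lower (6.25%), and 20 were not called. Among all 23875 genes tested, 34.3% were called higher and 35.6% lower. Groups did not overlap for 13 members that were higher (27.1%) and 1 that was lower (2.08%), against 19.5% and 17.5% of all genes. The median log2 fold change was 0.23 in complex I, 0.22 in complex II and 0.20 in complex III, against -0.01 for all genes tested. Only Ndufb9, Ndufb2 and Ndufa7 reached a 2-fold difference. The 48 genes have short transcripts, with a median of 1186 bases against 3222 for protein-coding genes tested. With the trend on transcript length taken out, 25 members were called higher and 8 lower.

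Core genes of complex I were higher in 4T1 in 6 of 7 cases, with a median log2 change of 0.45. These are 85.7%, against 34.3% of all genes tested. Without 4T1 libraries 1 and 2, 5 of the 7 were called higher, with a median of 0.41. Ndufs7 ranged over 31.1 to 51.0 CPM (median 43.7) in HC11 DOX and 59.5 to 91.6 CPM (median 68.2) in 4T1 DOX, without overlap, and rose by 0.77 ± 0.10 (edgeR adjusted p = 1.28e-06). Ndufs3 ranged over 38.9 to 54.9 CPM (median 48.1) and 67.3 to 104 CPM (median 75.2), again without overlap, and was higher by 0.74 ± 0.09 (edgeR adjusted p = 2.10e-07). The processed pseudogene Gm12251 held counts of 26.9% of those of Ndufs3, so that its counts are uncertain. Ndufv2, at 80.1 to 112 CPM (median 91.8) and 129 to 194 CPM (median 146), was higher by 0.67 ± 0.09 (edgeR adjusted p = 7.06e-07), and Ndufs8, at 47.5 to 68.8 and 73.1 to 104 CPM, by 0.45 ± 0.08. Neither overlapped.

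Values were smaller for Ndufv1 and Ndufs1. Ndufv1 ranged over 89.4 to 124 CPM (median 111) in HC11 DOX and 119 to 177 CPM (median 131) in 4T1 DOX, with overlap, and was higher by 0.35 ± 0.08 (edgeR adjusted p = 0.001). Ndufs1, the core subunit with the most iron-sulfur clusters, was not called, at 0.15 ± 0.07 (edgeR adjusted p = 0.067).

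Ndufb9 showed the largest difference of the 48 genes. HC11 DOX libraries held 74.9 to 135 CPM (median 94.1) and 4T1 libraries 293 to 431 CPM (median 326), so that every 4T1 library lay above every HC11 DOX library. The level was 99.8 ± 18.9 CPM (SD, n = 10) in HC11 DOX and 346 ± 54.4 (n = 8) in 4T1, and the log2 fold change was 1.76 ± 0.11 (edgeR adjusted p = 3.48e-11), a 3.40-fold difference. The DIP libraries held 90.1 to 251 CPM (median 130.5), all below the 4T1 libraries. Of its annotated exonic bases, 19.5% are shared with Gm49356, a gene model on the same strand, so that reads in those bases cannot be assigned to one of them.

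Ndufb2 and Ndufa7 followed. Ndufb2, an accessory subunit of the membrane arm, held 8.15 to 12.5 CPM (median 9.78) in HC11 DOX and 19.5 to 30.4 CPM (median 22.3) in 4T1, a difference of 1.24 ± 0.10 (edgeR adjusted p = 1.79e-09). Ndufa7 held 29.9 to 51.6 CPM and 69.3 to 120.4 CPM (median 79.2), a difference of 1.18 ± 0.13 (edgeR adjusted p = 1.26e-07). The groups did not overlap for either gene. Ndufa3, Ndufb8 and Ndufa10 were also higher without overlap, by 0.52 ± 0.09, 0.48 ± 0.08 and 0.47 ± 0.08. A further 7 accessory genes were called higher with overlap, from 0.27 (Ndufs4) to 0.46 (Ndufb5). Among them is Ndufa12, whose counts are uncertain since its pseudogene Gm15920 held 95.1% of its count. The calls of Ndufa12 and Ndufs6 were lost with all 3 groups in one fit (edgeR adjusted p = 0.0700 and 0.0780).

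The 3 members called lower in 4T1, against 35.6% of all genes, were accessory genes of complex I: Ndufa11, Ndufb4 and Ndufb6. Ndufa11 ranged over 45.7 to 65.2 CPM (median 50.6) in 4T1, all below the HC11 DOX libraries (66.4 to 119 CPM), and fell by 0.68 ± 0.11 (edgeR adjusted p = 1.54e-05). Ndufb4 held 36.4 to 53.9 CPM (median 45.0) in HC11 DOX and 22.2 to 46.9 CPM (median 29.6) in 4T1, where library 2 was the highest, and fell by 0.53 ± 0.11 (edgeR adjusted p = 3.13e-04). Its copy Ndufb4c has the same bases over the aligned 390 and held 75.7% of its count, so the counts of Ndufb4 are uncertain. Ndufb6 held 55.5 to 80.0 CPM and 45.4 to 67.0 CPM, with overlap, and fell by 0.34 ± 0.09 (edgeR adjusted p = 0.00277).

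In complex II, the catalytic pair was higher in 4T1 and the membrane anchors were not called. Sdhb held 65.7 to 97.9 CPM (median 84.1) in HC11 DOX and 129 to 178 CPM (median 149) in 4T1, and was higher by 0.85 ± 0.08 (edgeR adjusted p = 2.33e-08). Sdha held 132 to 158 CPM and 189 to 227 CPM (median 198), and was higher by 0.46 ± 0.05 (edgeR adjusted p = 1.78e-07). Neither pair of groups overlapped. Sdhc held 111 to 150.2 CPM (median 118) and 95.6 to 155 CPM (median 115), a value of -0.05 ± 0.09, and Sdhd 104 to 159.8 CPM and 121 to 144 CPM (median 129), a value of -0.01 ± 0.08.

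In complex III, 4 of 8 genes were higher in 4T1 and 0 lower (edgeR; at an unadjusted p under 0.05, lower 0 also). The 4 higher genes are 50% of the 8, against 34.3% of all genes tested. Uqcrc1 held 351 to 486 CPM (median 412) in 4T1, above every HC11 library of either treatment. It was higher than in HC11 DOX by 0.73 ± 0.09 (edgeR adjusted p = 4.75e-07). Uqcrfs1 held 110.3 to 141 CPM (median 127) and was higher by 0.39 ± 0.09 (edgeR adjusted p = 5.39e-04), with overlap. Uqcr11 and Uqcrc2 were higher by 0.25 ± 0.09 and 0.19 ± 0.06. The call of Uqcrfs1 was lost with all 3 groups in one fit (edgeR adjusted p = 0.111), and that of Uqcr11 with upper-quartile factors (0.0588), the length trend taken out (0.431) or 4T1 libraries 1 and 2 left out (0.0583). The small subunits Uqcrq, Uqcr10, Uqcrb and Uqcrh were not called, at 0.20, 0.18, 0.18 and 0.03. Uqcrq, the member that rose most with DIP, thus held 110.4 to 152 CPM (median 121) in 4T1.

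The comparisons share the HC11 DOX libraries, so their values are set side by side without a test between them. Uqcrc1 had -0.70 with DIP and 0.73 in 4T1, Ndufa8 -0.29 and 0.35, and Ndufa10 -0.22 and 0.47. Uqcr11 had -0.29 and 0.25, and Uqcrc2 -0.23 and 0.19. Each of these genes was called in both with all libraries. The DIP calls of Ndufa8, Ndufa10, Uqcr11 and Uqcrc2 were lost under alternatives, as was the 4T1 call of Uqcr11. Ndufa11 was called lower in both (-0.47 and -0.68), and Ndufa7, Ndufb9 and Sdha were called higher in both. The DIP call of Ndufb9 was lost without libraries 8 and 10. Of the 19 members with one of the motifs in their window, 11 were called higher in 4T1, with a median of 0.27, and of the 21 without, 10 were, with a median of 0.18. Among all genes tested, 34.3% were called higher in 4T1. Of the 5 genes with the YY1 motif, Ndufs7, Ndufc1, Ndufs6 and Ndufs4 were called higher in 4T1 and Ndufa9 was not (0.08 ± 0.07). With the NRF1 motif, Ndufa8, Uqcr11 and Uqcrc1 were called higher and Ndufa11 lower. With the ERR motif, Ndufb2 was called higher, Ndufb4 lower, and Ndufs5 and Sdhd were not called. With the ETS motif, Ndufs3, Ndufs8, Sdhb and Uqcr11 were called higher, Ndufb6 lower, and Ndufb7, Sdhd and Uqcrh were not called. A link between motif and change was not tested.

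Other genes of the respiratory chain were taken from lists drawn up for the pathway. For each list, here and below, the shares of all genes tested are the measure. They were 24.5% higher and 21.0% lower with DIP, and 34.3% higher and 35.6% lower in 4T1. With DIP, 1 of 16 ATP synthase genes rose and 8 fell (median -0.19), and without libraries 8 and 10 these were 0 and 10. The 16 include Atpif1, an inhibitor of the enzyme and not a subunit. Atp5g2, of the membrane ring, went from 133 ± 14.1 to 90.4 ± 11.3 CPM and fell by 0.54 ± 0.08, without overlap. Atp5k fell by 0.65 ± 0.12. In 4T1, 8 ATP synthase genes were higher and 3 lower (median 0.22), led by Atp5b (0.65 ± 0.07) and Atp5c1 (0.64 ± 0.08), both of the catalytic head. Complex IV genes gave 2 higher and 2 lower of 14 with DIP, where Cox7b fell by 0.39 ± 0.13 and Cox7c by 0.29 ± 0.11. In 4T1 they gave 6 higher and 1 lower of 13, where Cox6c was higher by 0.78 ± 0.09 and Cox7a2 by 0.49 ± 0.11. Cyc1, the cytochrome c1 of complex III, was not called with DIP (-0.05 ± 0.18) and was higher in 4T1 (0.74 ± 0.10). Of the relatives outside the symbol rule, Ndufb1-ps and Ndufab1 were higher in 4T1, by 1.02 ± 0.11 and 0.40 ± 0.09, Ndufa4l2 was lower (-3.86 ± 0.66), and 0 were called with DIP (edgeR).

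**Figure D4:**
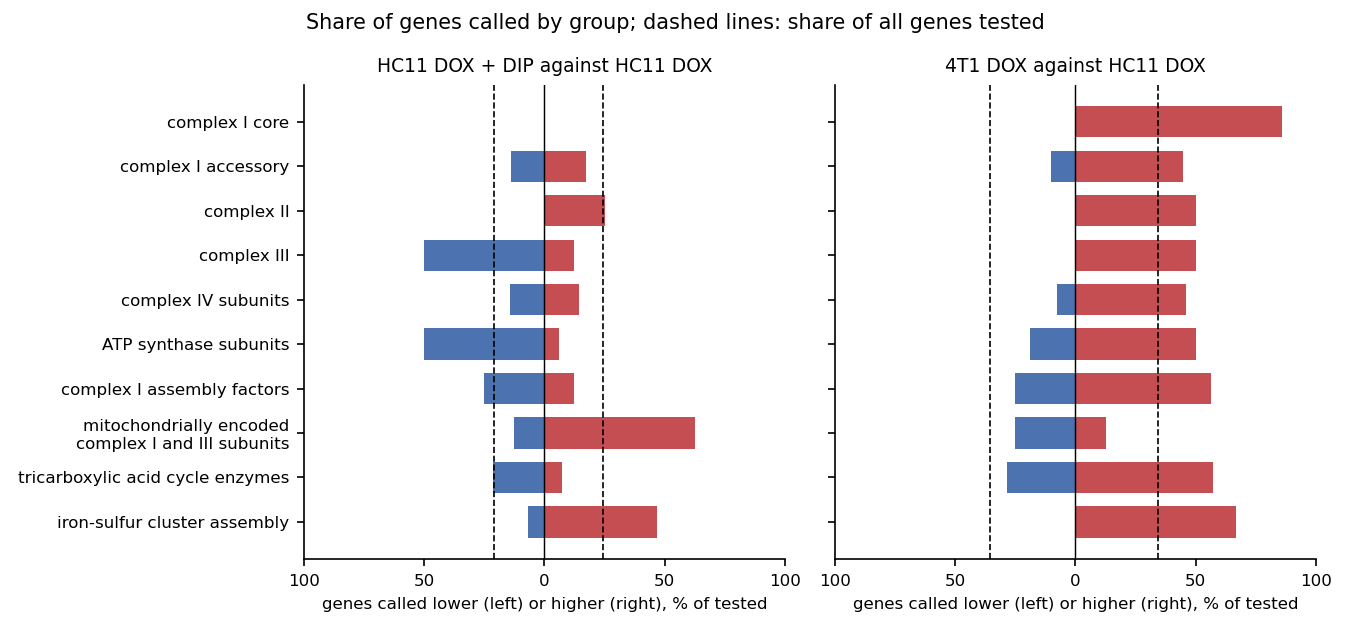
Percent of the genes tested in each group (rows) that were called higher, to the right, or lower, to the left, for HC11 DOX + DIP and for 4T1 DOX, each against HC11 DOX; dashed lines are the percents among all genes tested (24.5 and 21.0 with DIP, 34.3 and 35.6 in 4T1). Complex I core genes have the longest bar to the right in 4T1 (6 of 7, or 5 of 7 without 4T1 libraries 1 and 2). Complex III and ATP synthase genes have the longest bars to the left with DIP (4 of 8, of which 1 was kept under every alternative, and 8 of 16).

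Assembly factors, which build the complexes without staying in them, changed with DIP in a mixed way. Of all genes tested, 24.5% rose and 21.0% fell with DIP, and 34.3% were higher and 35.6% lower in 4T1. Of 16 complex I factors tested, 2 rose and 4 fell, among them Ndufaf5 (-0.67 ± 0.16) and Ndufaf7 (-0.54 ± 0.11), both methyltransferases. Of 4 complex II factors, 3 rose, led by Sdhaf1 (0.64 ± 0.15) and Sdhaf3 (0.38 ± 0.11). Of 6 complex III factors 2 rose, Uqcc3 by 0.70 ± 0.09 and Uqcc1 by 0.43 ± 0.15. In 4T1, 9 complex I factors were higher and 4 lower, with Ndufaf2 at 1.07 ± 0.15 and Ndufaf6 at 0.94 ± 0.11. Sdhaf2 was higher there (0.35 ± 0.08) and Sdhaf4 lower (-0.69 ± 0.12). Of the complex III factors, 2 were higher and 2 lower, among them Uqcc3 (0.76 ± 0.08) and Lyrm7 (-1.18 ± 0.10), which carries the Rieske protein Uqcrfs1 before it is inserted.

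Iron-sulfur cluster genes, whose products supply the clusters of all 3 complexes, rose in 7 of 15 cases with DIP and fell in 1. The counts in this paragraph stand beside 24.5% higher and 21.0% lower of all genes with DIP, and 34.3% and 35.6% in 4T1. Nfs1, the cysteine desulfurase, rose by 0.76 ± 0.10 without overlap, and Hspa9, the mitochondrial chaperone, by 0.81 ± 0.20. In 4T1, 10 of the 15 were higher and 0 lower, led by Glrx5 (1.35 ± 0.12) and Hspa9 (0.96 ± 0.07). Of 14 tricarboxylic acid cycle genes, 1 rose with DIP (Dld, 0.76 ± 0.21) and 3 fell, Fh1 most (-0.48 ± 0.09). In 4T1, 8 were higher and 4 lower, with Dlst at 0.99 ± 0.09 and Dld at 0.93 ± 0.12. The mitochondrially encoded subunits of complexes I and III gave 5 higher and 1 lower of 8 with DIP, where mt-Nd1 fell by 0.64 ± 0.09 and mt-Nd4 rose by 0.49 ± 0.13. In 4T1 they gave 1 higher and 2 lower, with mt-Nd3 at 0.59 ± 0.19 and mt-Nd4l at -0.76 ± 0.18. Nuclear copies of mitochondrial DNA make the counts of these genes uncertain.

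Among 14 regulators of respiratory genes tested, 3 rose and 3 fell with DIP, and 5 were higher and 4 lower in 4T1. The shares of all genes tested were 24.5% and 21.0% with DIP, and 34.3% and 35.6% in 4T1. Nrf1, the factor behind the NRF1 motif, fell by 0.42 ± 0.09 with DIP (edgeR adjusted p = 4.49e-04) and was higher in 4T1 by 0.42 ± 0.07. Tfb2m, a mitochondrial transcription factor, rose with DIP by 0.57 ± 0.19, and Tfam, which packages mitochondrial DNA, was higher in 4T1 by 0.55 ± 0.06. Ppargc1a, the PGC-1 alpha coactivator, held 7.56 to 32.7 CPM (median 26.5) in HC11 DOX, 7.45 to 42.0 CPM with DIP and 0.0966 to 0.738 CPM (median 0.201) in 4T1. It was lower in 4T1 by 6.33 ± 0.43 on the log2 scale (edgeR adjusted p = 7.70e-11), a change in the opposite direction to most of the called members.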

How the data were processed

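The data were gene-level counts of total RNA libraries from 2 mouse mammary cell lines. Per the labels' protocols, RNA was extracted with TRIzol and libraries were made with the NEBNext Ultra II kit after removal of ribosomal RNA. Per the submitters' processing notes, the tools were fastp 0.23.2, a read trimmer, and featureCounts 2.0.1, on the build GRCm39. The authors deposited whole-number counts per Ensembl gene for each library. For the aligner, the strand setting and the annotation release, nothing is given in the sources used here. Symbols, transcript lengths and exon overlaps came from GENCODE vM21 on GRCm38, in which 52125 of the 56748 identifiers had a symbol.

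Counts were tested with edgeR 4.0.16 in R 4.3.3: filterByExpr, TMM factors, glmQLFit with robust estimation and glmQLFTest, with Benjamini-Hochberg adjustment over all genes tested and a threshold of 0.05. CPM used TMM factors over all 28 libraries. Copies were sought with blastn, and the fit was tested on simulated counts. Alternatives were RLE, upper-quartile and protein-coding TMM factors, no filter, DESeq2 1.42.0, limma 3.58.1 voom, all groups in one fit, the length trend (lowess span 0.3) taken out, and libraries left out. The members, lists and tests were chosen with earlier results of these data known, so no list is independent evidence. The naming rule took the catalytic members, the 3 called members of each complex with the largest changes in each direction, up to 2 of each other list, and the extremes per kb; other genes were named after their values were seen. The values of 1 member are not reported here.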

Additional observations from a re-analysis of the deposited data

Results flagged for a closer look

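Of 90 sets of values of a gene or a complex within a group of libraries that were tested on the log2 scale for an outlying library, 1 had one by Dixon's criterion at the 95% level, and chance alone gives about 1 in 20. Ndufa1, an accessory subunit of complex I, had 69.3 CPM in library 10 of HC11 DOX + DIP, the highest of a group with a median of 41.0 CPM, and the gap to the next library was 0.473 of the range on that scale. Without libraries 8 and 10, Ndufa1 was still called higher with DIP (0.40, edgeR adjusted p = 7.05e-04). The criterion takes the gap from the extreme library to the next, so a pair of outlying libraries can hide each other. In HC11 DOX + DIP, Sdhd held 316 and 411 CPM in libraries 8 and 10, against at most 159.5 in the other 8. Uqcrfs1 held 203 and 262 CPM there, against at most 91.0. Neither gene was flagged, so the count of flags does not show how many libraries stood apart.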

How the results depend on the processing

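The number of members that fell with DIP, 8, was 4 with upper-quartile factors, 4 with the length trend taken out and 13 without libraries 8 and 10, and lay between 5 (without HC11 DOX + DIP library 3) and 11 with each library left out. The number that rose lay between 7 and 8 with each library left out. In 4T1, 8 rather than 3 members were lower with the length trend taken out, and 3 to 5 with each library left out (5 without 4T1 library 2), whereas 24 to 28 were higher, and 23 without 4T1 libraries 1 and 2. The 4T1 libraries most often high for these genes were 2 and 4, among the 2 highest for 44 and 45 of the 48. No fit left out these libraries together. Under every alternative run and each library left out, 6 of 7 higher and 3 of 8 lower calls with DIP were kept, and 20 of 25 and 3 of 3 in 4T1. Signs turned for members that were not called. With DIP, Ndufs3 was 0.025 with the length trend taken out. Without libraries 8 and 10, Ndufs7 was -0.13, Sdhd -0.084, Uqcrfs1 -0.26 (called) and Ndufb2 -0.0043, and without library 10 alone Ndufs7 was -0.024 and Uqcrfs1 -0.011. With each library left out, Ndufs7 lay between -0.024 and 0.15 and Uqcrfs1 between -0.011 and 0.29. In 4T1, Sdhd was 0.027 with no filter and 0.00019 with limma voom, and Ndufa1 was 0.0075 with no filter. With each library left out, Sdhd lay between -0.043 and 0.023, Sdhc between -0.086 and 0.0043 and Ndufa1 between -0.089 and 0.0055 in 4T1. The cause of these changes was not tested. No paired analysis was possible because the labels give no replicate numbers that the groups share. There were 10 or 8 libraries a group, with at least 134117581 counts in each. Ndufb2, the lowest member per kb, held 16810 counts over the HC11 DOX libraries together. What part depth and the spread between libraries have in the values was not tested.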

Other observations

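Ndufb9, the member with the largest difference in 4T1, was set beside the nearest 5 tested protein-coding genes on either side, chosen after its value was seen. Genes of other types or not tested were passed over. The 3 of these genes nearest to Ndufb9 on one side were also higher in 4T1 than in HC11 DOX. Tatdn1, a deoxyribonuclease-like gene, had 16.4 ± 2.50 CPM (SD, n = 10) in HC11 DOX and 54.0 ± 4.67 (n = 8) in 4T1, a log2 difference of 1.70 ± 0.09 (edgeR adjusted p = 4.24e-12). Rnf139, a ubiquitin ligase gene, had 25.4 ± 2.21 CPM and 70.0 ± 2.93, a difference of 1.44 ± 0.06 (edgeR adjusted p = 1.75e-13). Gm49356, which shares exonic bases with Ndufb9, differed by 1.68 ± 0.11. Beyond them, Trmt12 and Tmem65 were not called, at 0.12 ± 0.11 and 0.10 ± 0.09. On the other side, Mtss1, the nearest of these genes, was lower (-0.44 ± 0.10). Sqle, Washc5, Nsmce2 and Trib1 were higher by 0.75 ± 0.15, 0.34 ± 0.07, 0.46 ± 0.09 and 0.46 ± 0.19. With DIP, Tatdn1, Rnf139 and Gm49356 rose by 0.51, 0.48 and 0.47, beside 0.50 for Ndufb9, whose call was lost without libraries 8 and 10. Trib1, Washc5 and Trmt12 were also called higher with DIP, by 0.90, 0.26 and 0.26. Tmem65, Mtss1, Sqle and Nsmce2 were not called with DIP.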
